A study of Bos taurus with 6 samples.

Results

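The 10 genes described here encode the core of the microRNA pathway: the Argonaute genes AGO1, AGO2, AGO3 and AGO4, the processing genes DROSHA, DGCR8, XPO5, DICER1 and TARBP2, and the effector gene TNRC6A. They were taken by name from the 18010 genes of the deposited transcript tables, and AGO2 led to the choice because its summed expression differed between the breeds, so its own breed difference is given as a description without a test. RNA-Seq was done on the longissimus dorsi, a back muscle, with 1 library for each of 3 animals of the Shandong black breed (B) and 3 of the Luxi breed (L), at an age of 18 months in all cases. Luxi cattle is a local Chinese cattle breed, and Shandong black cattle is a newer breed with Luxi cattle, Japanese black cattle and Bohai black cattle in its ancestry. The comparison throughout is Luxi against Shandong black cattle, the breed contrast for which the series was made. Breed was the only factor that the labels gave. By the paper's methods the animals of each breed came from a supplier of their own, so supplier and breed cannot be told apart. The same holds for anything else that differed between the 2 sets of animals.

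MicroRNAs are short RNAs that lower the output of the messenger RNAs they pair with. A long transcript is cut in the nucleus by DROSHA with its RNA-binding partner DGCR8, the hairpin is exported by XPO5, and DICER1 with TARBP2 cuts it to a short duplex. One strand is loaded into an Argonaute protein, AGO2 being the family member best known for cutting its targets, and TNRC6A links the loaded Argonaute to the enzymes that shorten the poly(A) tail and remove the cap of the target. In muscle, microRNAs expressed largely in that tissue take part in the differentiation of muscle cells. No small-RNA library was used here, and the values below are of the messenger RNA of these genes.

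Gene expression was read in 2 ways. The gene FPKM (fragments per kilobase of transcript, scaled to the size of the library) was the sum over the reference transcripts of the gene plus those transcripts that StringTie assembled from the reads without a gene name and that lay for 50% or more of their length on same-strand exons of that gene. The exon coverage was the deposited coverage of every transcript on that strand, named or not, summed over the annotated exons and divided by the gigabases aligned in the library; it leaves no transcript out, whatever the length of its ends, and was added after the FPKM values had been seen. The libraries held between 14.1 and 14.6 aligned gigabases in Shandong black cattle and between 17.5 and 18 in Luxi cattle, and assembled transcripts outside the sum held 21.6 to 29.8% of the FPKM of a library. All 8 muscle markers were detected, with summed FPKM of 45500 to 56000 in Shandong black animals and 23100 to 72000 in Luxi animals, mostly ACTA1. None of the 8 was called by FPKM. By exon coverage 2 were, both myosin heavy chains of fibre types. MYH7, of slow fibres, stood at 1680, 2530 and 1990 per gigabase in Shandong black animals and 316, 372 and 397 in Luxi animals (limma adjusted p = 0.0142), and MYH1, of fast fibres, at 3.75, 0.12 and 2.13 and at 15.4, 57.8 and 16.3 (adjusted p = 0.0372). The markers of other cell types were not level between the breeds: the 5 adipocyte markers summed to an FPKM of 109 to 173 in Shandong black animals and 2.04 to 17.3 in Luxi animals, the 4 fibroblast markers to 102 to 147 and 346 to 458, and the 3 of 4 endothelial markers that were listed to 13.5 to 15.0 and 19.7 to 49.5. The fibroblast sums differed mostly through the collagens, with breed means of 22.0 and 177 for COL3A1 and 29.9 and 93.4 for COL1A1. PDGFRA had means of 8.1 and 10.8 without overlap, and DCN 68.3 and 107 with overlap. Of the endothelial markers, TEK overlapped between the breeds (means 2.68 and 3.7), and PECAM1 and CDH5 did not. Macrophage markers (7.42 to 12.1 and 5.97 to 10.5) and the 3 of 4 blood markers that were listed (1.12 to 1.98 and 1.38 to 1.99) overlapped between the breeds. None of the listed markers was at 0 in every animal. In bulk muscle, fewer cells of a type and less RNA per cell cannot be told apart, and the part of these cell and fibre types in the values of the microRNA genes was not tested.

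AGO2 had a gene FPKM of 0.157, 0.0299 and 0.183 in the 3 Shandong black animals and of 7.62, 10.5 and 8.12 in the 3 Luxi animals. The breeds were far apart, and no animal of one breed came near the other. The means were 0.123 ± 0.0818 and 8.76 ± 1.56 (SD, n = 3 each), a ratio of 71.0 and a difference of 3.11 in mean log2(FPKM + 1). By exon coverage the picture differed. AGO2 stood at 8.25, 6.49 and 6.69 per gigabase in Shandong black animals and 7.22, 10.4 and 7.62 in Luxi animals. The breeds overlapped, with Shandong black animal 1 above Luxi animals 1 and 3. The means were 7.15 ± 0.964 and 8.41 ± 1.73 (SD, n = 3 each), a ratio of 1.18 and a difference of 0.20 in log2(coverage + 1), which ran from 0.05 to 0.29 when each animal was left out in turn and was 0.09 after scaling by median-of-ratios size factors. Reads on AGO2 exons were thus present in all 6 animals, at 6.49 to 10.4 per gigabase, and the ratio of 71.0 was that of the summed FPKM.

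**Figure D1:**
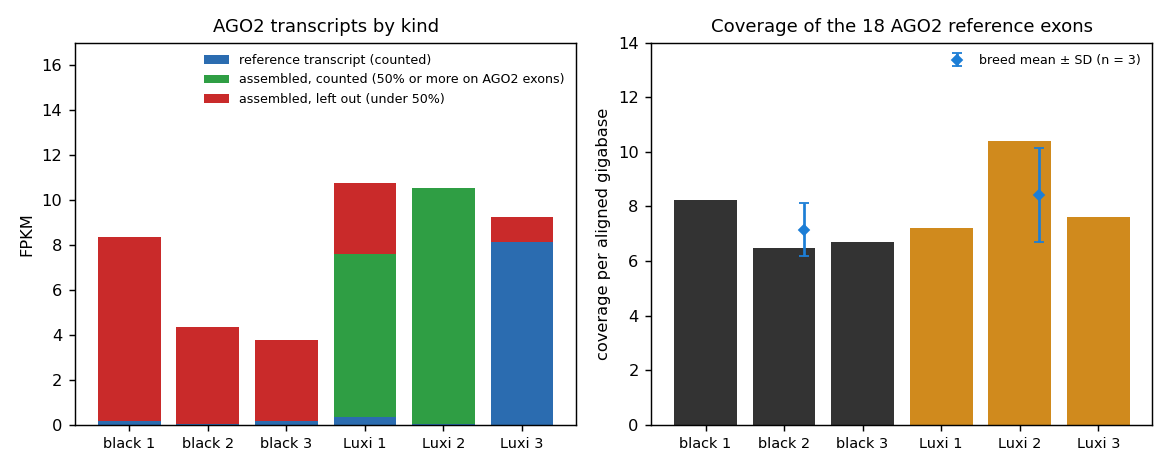
AGO2 in each animal. Left, FPKM of the transcripts on AGO2 exons, stacked by kind. Right, coverage of the 18 reference exons per aligned gigabase, with the mean ± SD of each breed (n = 3). The left bars of the Shandong black cattle are almost wholly transcripts outside the gene sum, and the right bars of the breeds overlap.

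The gap between the measures lay in where the assembled transcripts ended. The annotation of the files gives AGO2 (gene17675, ARS-UCD1.2, chr14:3100810-3138228, plus strand) 1 transcript of 18 exons and 2563 bases, spread over 37419 bases. In 5 of the 6 animals most of the AGO2 signal sat instead on an assembled transcript of 19 exons, which added a first exon that began 44750 to 44762 bases before the annotated start and extended the last exon past the annotated end. That added first exon ended at the same base, 3056137, in all 5 animals, and was 78 to 90 bases long. It was thinly covered, at 0.115 to 1.2 per gigabase in the 19-exon transcripts, where annotated exon 1 had 3.86 to 7.31 over the 6 animals.

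The 3′ extension was what differed. In the Shandong black cattle the 19-exon transcript ran 3576, 8504 and 11579 bases past the annotated end, so that 41.1, 23.0 and 18% of its bases were on annotated exons. In Luxi animals 1 and 2 it ran 1133 bases past the end in both, with 67.9 and 67.8% of its bases on annotated exons. All 3 Shandong black transcripts were therefore under the 50% needed for the gene sum and both Luxi transcripts over it. Their own FPKM values were 6.17, 3.64 and 3.58 in the Shandong black cattle against 7.28 and 10.5 in Luxi animals 1 and 2, each averaged over the whole transcript with its 3′ extension.

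Luxi animal 3 had no such transcript. Its AGO2 signal sat on the reference transcript, at an FPKM of 8.12, where the other 5 animals had between 0.026 and 0.336 on it. The sequence past the annotated end was assembled in that animal as a separate piece of 1869 bases at an FPKM of 8.71, which ended 3577 bases past the gene, 1 base from the end of the transcript of Shandong black animal 1. Long 3′ sequence was also seen in Luxi animal 1, in a transcript of 4 exons that reached 11531 bases past the annotated end at an FPKM of 3.13, and Shandong black animal 1 had a like transcript that reached 12209 bases past it at an FPKM of 2.03. Reads past the annotated 3′ end were thus assembled in every animal, in both breeds, to lengths that differed between animals.

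**Figure D2:**
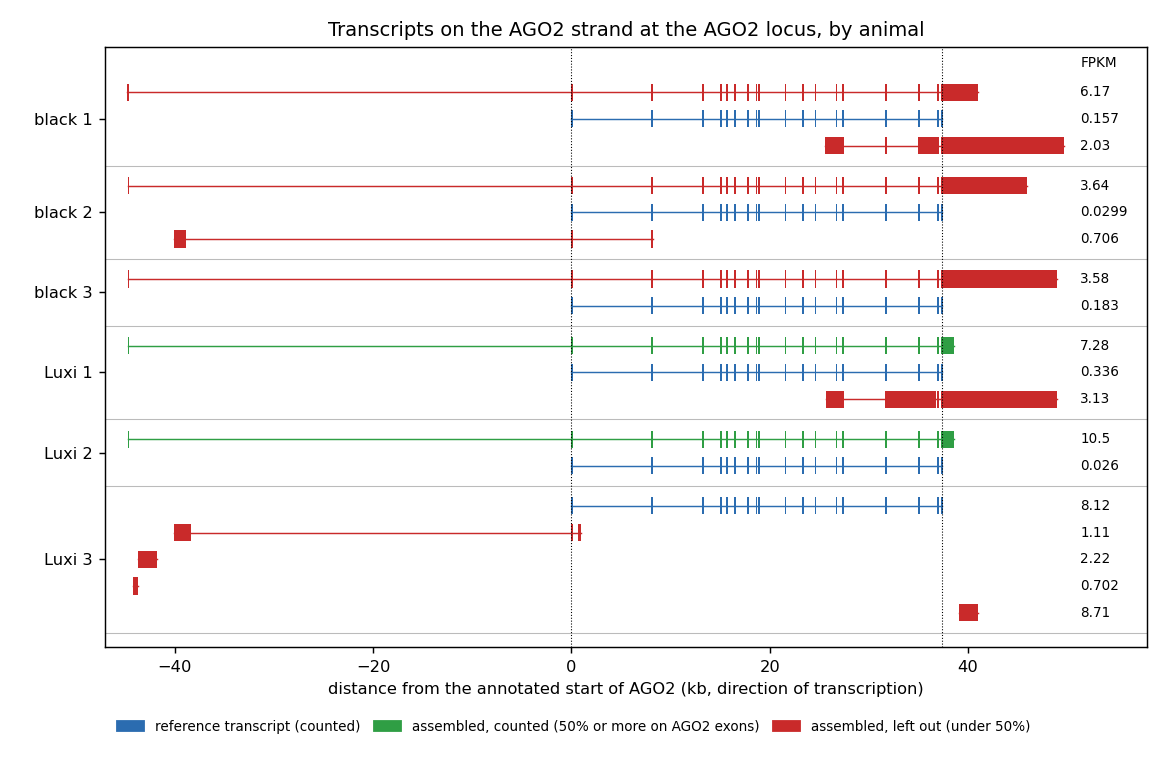
Map of the transcripts on the AGO2 strand in each animal, with the distance from the annotated start in kb; boxes are exons (drawn with a minimum width), lines are introns, dotted lines mark the annotated ends, and the FPKM of each transcript is at the right. Single-exon pieces are shown from an FPKM of 0.5. The 19-exon transcript is present in 5 animals and ends farther downstream in the Shandong black cattle.

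By kind of transcript, the reference transcript of AGO2 had an FPKM of 0.157, 0.0299 and 0.183 in Shandong black animals and 0.336, 0.026 and 8.12 in Luxi animals, which overlapped. The assembled transcripts in the sum were at 0 in all 3 Shandong black cattle and in Luxi animal 3, and at 7.28 and 10.5 in Luxi animals 1 and 2. Those outside the sum held 8.2, 4.34 and 3.58 in Shandong black animals and 3.13, 0 and 1.11 in Luxi animals, or 97.8% of the AGO2 FPKM of the Shandong black cattle and 13.9% of that of the Luxi cattle. The separate 3′ piece of Luxi animal 3, at 8.71, lay on no AGO2 exon and is not in these values or shares. On the opposite strand, assembled transcripts on AGO2 exons reached an FPKM of at most 0.28 in any animal. With other rules for the assembled transcripts the difference in log2(FPKM + 1) was 1.05 on the reference transcript alone, 1.05 with a minimum of 80% of the bases on the exons, 1.43 with 20%, and 1.14 with all transcripts of the same assembled locus. At 80% the 19-exon transcripts of Luxi animals 1 and 2 also fell out of the sum, so that the 1.05 came from Luxi animal 3 at 8.12. At 20% the 19-exon transcript of Shandong black animal 3 was still left out. By locus, the sum of Luxi animal 3 added the separate 3′ piece at 8.71 to its reference transcript at 8.12. The part of that piece in the 1.14 was not tested.

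Along the gene, coverage was not even. Over exons 1 to 9 it was 6.58, 5.57 and 5.68 per gigabase in Shandong black animals and 4.92, 6.33 and 4.41 in Luxi animals, with the breeds overlapping. Over exons 10 to 17 it was 10, 7.78 and 8.08 in Shandong black animals and 8.89, 14.5 and 10.8 in Luxi animals, which also overlapped. The later exons were higher than the earlier ones in all 6 animals. The ratio of the later to the earlier exons was 1.53, 1.4 and 1.42 in Shandong black animals and 1.81, 2.29 and 2.45 in Luxi animals. These ratios did not overlap (means 1.45 ± 0.0693 and 2.18 ± 0.333, SD, n = 3 each), a description of a pattern found after the values were seen. Over 2368 genes with at least 6 exons and a mean coverage of at least 5, cut into a first, a middle and a last stretch of about equal exon bases, the median ratio of the last to the first stretch was 0.739 to 0.862 in Shandong black animals and 0.777 to 0.968 in Luxi animals, and its part in the AGO2 ratio was not tested. By single exon, 14 of 18 overlapped between the breeds and 4 did not, exons 15 to 18, all higher in Luxi cattle, though at exon 15 Shandong black animal 1 and Luxi animal 1 were both at 12.4. Exon 18 stood at 7.82, 2.87 and 3.13 in Shandong black animals and at 15.3, 11.7 and 9.31 in Luxi animals. The files give coverage as a mean per assembled exon, so at exon 18 it is averaged as far as the assembled 3′ end, over 3687, 8615 and 11690 bases in the main transcripts of the Shandong black cattle. In those of the Luxi cattle it is averaged over 1244, 1244 and 111 bases. The 4-exon transcripts of Shandong black animal 1 and Luxi animal 1 also had exons longer than the annotated ones before exon 18. The values of those 2 animals within exons 10 to 17 thus hold some of the same averaging. Without exon 18 the AGO2 exon coverage had means of 7.26 ± 0.885 and 8.25 ± 1.84 (SD, n = 3 each), a difference of 0.15 in log2(coverage + 1).

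**Figure D3:**
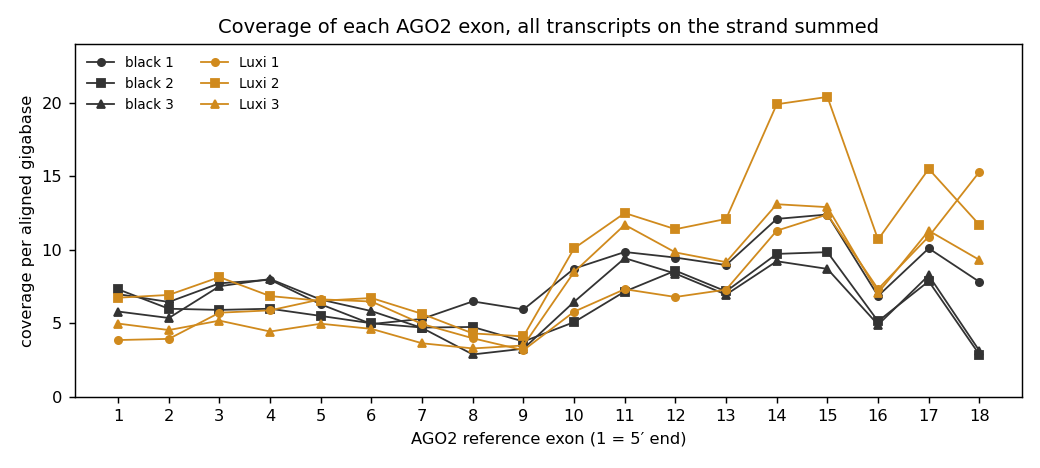
Coverage of each AGO2 reference exon per aligned gigabase, 1 line per animal, with exon 1 at the 5′ end. All 6 animals are higher at exon 15 than at exon 9, and the Luxi animals sit above the Shandong black animals from exon 15 to exon 18, at exon 15 by a margin too small to see.

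Of the other 9 genes, limma with Benjamini-Hochberg adjustment over all genes tested called none, where a call needs an adjusted p under 0.05 and a difference of at least 1 in log2(FPKM + 1). In that comparison 2.57% of the 9781 genes tested were called. The 8 genes with enough FPKM to test had a median difference of 0.13, the same as the median over all genes, and the 7 tested by exon coverage one of 0.30, beside 0.12 over all genes. Before adjustment, AGO4, XPO5 and TNRC6A had p under 0.05, which 21.8% of all genes did. The same 3 genes did not overlap between the breeds, as was so for 29.1% of all genes. By exon coverage none was called (3.12% of 9280 genes were). AGO4, XPO5 and TNRC6A again had p under 0.05 (24.5% of all genes), and these 3 and DGCR8 did not overlap (30.9% of all genes). None was called by limma voom on estimated reads either.

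**Figure D4:**
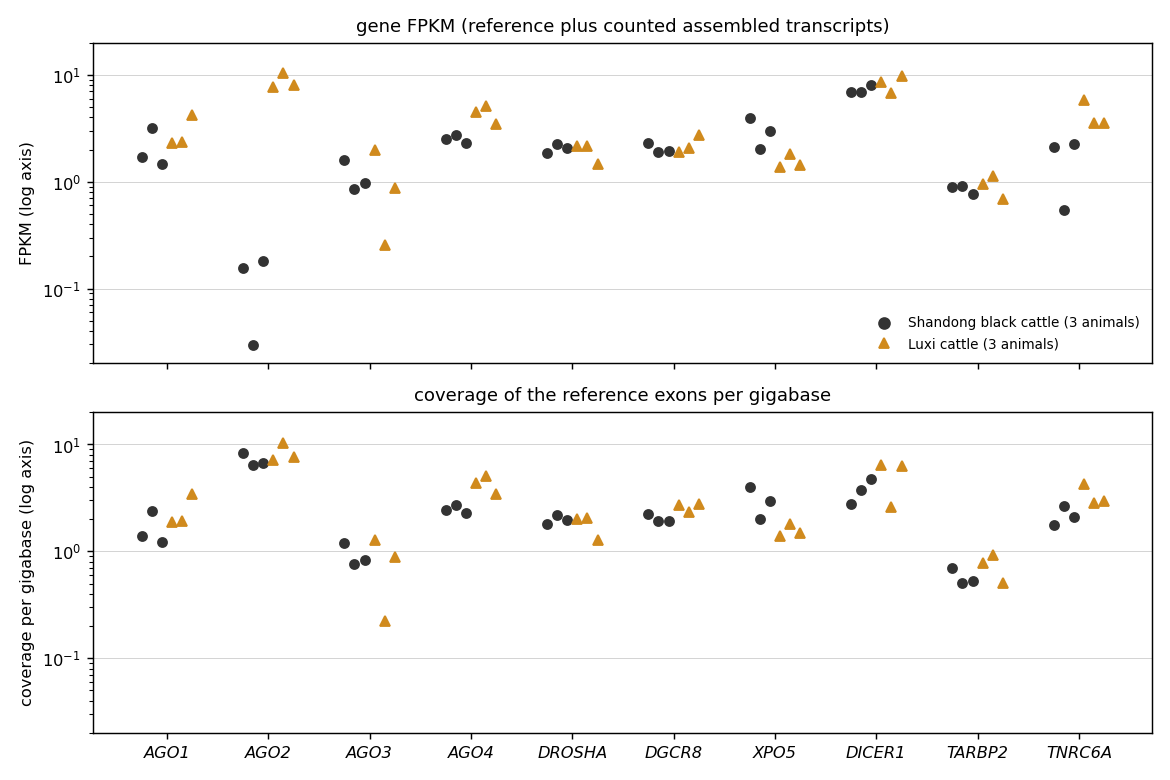
Level of the 10 genes in each animal on log axes, as gene FPKM (top) and as exon coverage per aligned gigabase (bottom), with circles for Shandong black cattle and triangles for Luxi cattle. AGO2 is the gene whose picture differs between the panels, with the breeds apart at the top and overlapping at the bottom.

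The other 3 Argonaute genes lie next to one another on chromosome 3, and they encode proteins that bind microRNAs as AGO2 does. AGO4 (gene4570, chr3:109943351-109981247, minus strand) had FPKM of 2.49, 2.76 and 2.31 in Shandong black animals and 4.45, 5.14 and 3.49 in Luxi animals, all of it on the reference transcripts. Every Luxi animal was above every Shandong black animal. The means were 2.52 ± 0.226 and 4.36 ± 0.829 (SD, n = 3 each), a difference of 0.60 in log2(FPKM + 1) with a 95% interval of 0.18 to 1.01. It did not pass limma's test after adjustment (adjusted p = 0.116), nor by exon coverage, where the difference was also 0.60 (adjusted p = 0.0849), and its adjusted p ran from 0.0707 to 0.356 over the alternatives. AGO1 (gene4569, chr3:109875883-109914109, minus strand) had FPKM of 1.71, 3.15 and 1.47 in Shandong black animals and 2.31, 2.37 and 4.2 in Luxi animals. The breeds overlapped through Shandong black animal 2, and the difference of 0.35 (95% interval -0.28 to 0.99) had a limma adjusted p of 0.47. AGO3 (gene4565, chr3:109741897-109873009, minus strand) had FPKM of 1.6, 0.853 and 0.965 in Shandong black animals and 1.97, 0.257 and 0.88 in Luxi animals. Luxi cattle held both the highest and the lowest animal, and the difference of -0.14 (95% interval -0.90 to 0.62, limma adjusted p = 0.827) turned to 0.16 without Luxi animal 2.

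Summed over the 4 Argonaute genes, the exon coverage was 13.3, 12.3 and 11 per gigabase in Shandong black animals and 14.8, 17.6 and 15.4 in Luxi animals. AGO2 held the largest share of it in all 6 animals, on a scale that averages AGO3 over 16420 annotated exon bases and AGO2 over 2563, at 62.1, 52.6 and 60.8% in Shandong black animals and 48.9, 59.1 and 49.5% in Luxi animals. The shares of AGO2 overlapped between the breeds (58.5% ± 5.16 and 52.5% ± 5.71, SD, n = 3 each). AGO4 came next by mean, with 20.3% ± 1.82 in Shandong black animals and 26.9% ± 4.08 in Luxi animals, and its lowest Luxi share, 22.2%, was just above its highest Shandong black share, 22.0%. AGO1 held 13.6% and 15.4% and AGO3 7.53% and 5.23% by mean.

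DROSHA and DGCR8 form the nuclear complex that cuts the primary microRNA transcript. DROSHA (gene25681, chr20:41999298-42122156, plus strand) had FPKM of 1.84, 2.24 and 2.06 in Shandong black animals and 2.16, 2.18 and 1.47 in Luxi animals. The breeds overlapped, and the difference was -0.06 with a 95% interval of -0.46 to 0.34 (limma adjusted p = 0.866). DGCR8 (gene21788, chr17:72976003-72990315, plus strand) had FPKM of 2.28, 1.91 and 1.92 in Shandong black animals and 1.9, 2.08 and 2.76 in Luxi animals. These values overlapped, with a difference of 0.09 (95% interval -0.30 to 0.49, limma adjusted p = 0.786) that was -0.01 after scaling by size factors. By exon coverage DGCR8 stood at 2.22, 1.94 and 1.93 in Shandong black animals and 2.7, 2.35 and 2.8 in Luxi animals. There the breeds did not overlap, and the difference of 0.25 (95% interval -0.07 to 0.58) had a limma adjusted p of 0.308.

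Like AGO2, DGCR8 was read mostly from assembled transcripts: its reference transcript held 10.8% of its FPKM over the 6 animals. In 5 of the 6 animals the largest of them began 4285 to 4623 bases before the annotated start, and in Luxi animal 3 it began 1865 bases before it. These transcripts had 14 exons against 13 in the annotation. In contrast to AGO2, they kept to the annotated 3′ end within 21 bases and had 54.4 to 91.5% of their bases on annotated exons, so they entered the gene sum in every animal.

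XPO5, the nuclear export receptor of microRNA hairpins, was the only one of the 9 genes whose values all lay lower in Luxi cattle. XPO5 (gene27942, chr23:17069288-17114344, minus strand) had FPKM of 3.94, 2.01 and 2.99 in Shandong black animals and 1.36, 1.8 and 1.44 in Luxi animals. No animals overlapped, although Shandong black animal 2 and Luxi animal 2 were close. The means were 2.98 ± 0.968 and 1.53 ± 0.237 (SD, n = 3 each), a difference of -0.63 with a 95% interval of -1.13 to -0.12. The difference did not pass limma's test after adjustment (adjusted p = 0.151), nor by exon coverage (-0.62, adjusted p = 0.124), and its adjusted p ran from 0.0785 to 0.391 over the alternatives. All of the XPO5 sum was on its 2 reference transcripts.

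DICER1, the enzyme that cuts the hairpin, had the highest gene FPKM of the 10 by mean, and TARBP2, its RNA-binding partner, the lowest. DICER1 (gene26593, chr21:59952096-60027616, minus strand) had FPKM of 6.9, 6.92 and 8.04 in Shandong black animals and 8.6, 6.74 and 9.8 in Luxi animals. The breeds overlapped through Luxi animal 2, and the difference was 0.17 (95% interval -0.29 to 0.62, limma adjusted p = 0.643). By exon coverage, which averages over all 10940 annotated exon bases of its 9 reference transcripts, DICER1 stood at 2.79, 3.78 and 4.76 in Shandong black animals and 6.47, 2.59 and 6.25 in Luxi animals, a difference of 0.30 with the breeds overlapping. TARBP2 (gene6181, chr5:26518832-26524328, minus strand) had FPKM of 0.889, 0.906 and 0.761 in Shandong black animals and 0.943, 1.13 and 0.684 in Luxi animals. With both means under 1 it was not tested, and the values overlapped.

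TNRC6A, the scaffold that recruits the deadenylases, had the largest difference among the 9 by FPKM, though by exon coverage XPO5 and AGO4 differed by more. TNRC6A (gene29879, chr25:22384158-22481466, plus strand) had FPKM of 2.11, 0.546 and 2.24 in Shandong black animals and 5.77, 3.51 and 3.54 in Luxi animals. The Luxi animals were all higher. The means were 1.63 ± 0.942 and 4.28 ± 1.3 (SD, n = 3 each), a difference of 1.05 in log2(FPKM + 1) with a 95% interval of 0.29 to 1.81, and it did not pass limma's test after adjustment (adjusted p = 0.126). The size of that difference depended on the measure, as for AGO2. In Shandong black animal 2, the lowest, an FPKM of 2.88 sat on assembled transcripts outside the sum, the largest being 29367 bases long with 21.0% of its bases on annotated exons. By exon coverage that animal was the highest of the Shandong black cattle, at 2.65 beside 1.76 and 2.11, and the Luxi cattle were at 4.3, 2.81 and 2.99. The breeds still did not overlap, and the difference was 0.45 with a 95% interval of 0.01 to 0.89 (limma adjusted p = 0.195). Over the alternatives the adjusted p ran from 0.0966 to 0.473.

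**Figure D5:**
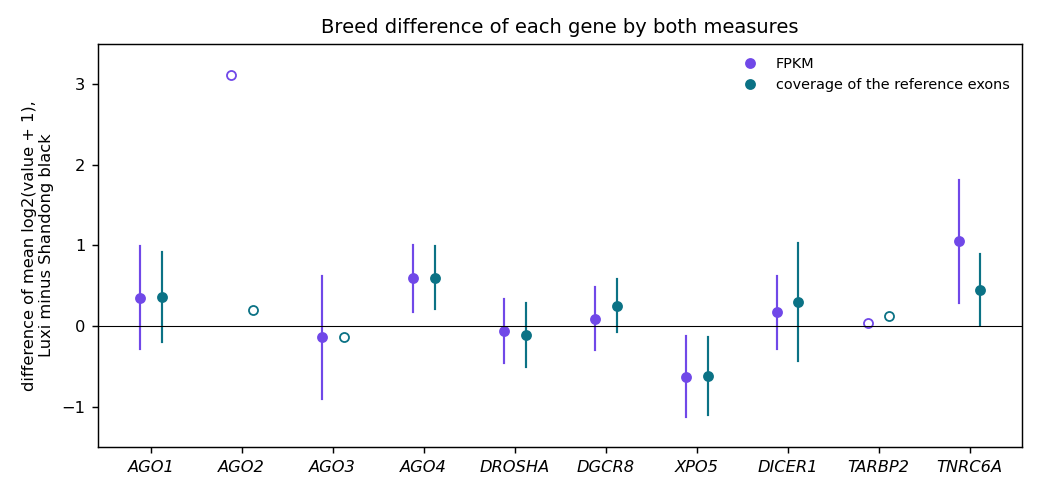
Difference of the mean log2(value + 1), Luxi minus Shandong black cattle, of each gene by gene FPKM and by exon coverage, with 95% limma intervals. Open circles have no interval, since AGO2 was chosen on this contrast and the others were too low to test. AGO2 moves from 3.11 to 0.20 and TNRC6A from 1.05 to 0.45 between the measures, and XPO5 lies below 0 by both.

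The order of the 10 genes depended on the measure. Exon coverage averages over all annotated exons, so it is lower for a gene with many annotated transcripts, such as DICER1 with 9, than for AGO2 with 1, and levels of different genes are only roughly comparable on it. On that scale AGO2 had a mean of 7.78 ± 1.43 per gigabase over the 6 animals (SD), and the order of AGO2 and DICER1 was not the same by FPKM. DICER1 (4.44 ± 1.68) was above AGO4 in 5 of 6 animals, AGO4 (3.38 ± 1.13) above TNRC6A in 6, and TNRC6A (2.77 ± 0.878) above DGCR8 in 5. DGCR8 (2.32 ± 0.369), XPO5 (2.27 ± 1.01), AGO1 (2.04 ± 0.807) and DROSHA (1.88 ± 0.321) lay within their spread of one another, each above the next in 2 or 3 of 6 animals except that DROSHA was above AGO3 in all 6. AGO3 (0.86 ± 0.373) and TARBP2 (0.655 ± 0.173) were the lowest. By gene FPKM the order began with DICER1 (7.83 ± 1.22), and AGO2 came next with a spread as large as its mean (4.44 ± 4.83).

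The wider pathway was read from 6 lists of 74 gene names (3 genes stand in them under an older and a newer name), of which 64 were listed in the files and 58 could be tested by FPKM. None of the 58 was called by limma, none by limma voom, 8 had an unadjusted p under 0.05 with the higher mean in Luxi cattle and 3 with the lower. Of all genes, 15.0% and 6.81% did so. In 19 of the 58 the breeds did not overlap, 14 of them higher and 5 lower in Luxi cattle, beside 29.1% of all genes, and the median difference of 0.13 was that of all genes.

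Among the helpers of Argonaute loading, 15 of 20 were tested, with 2 higher and 1 lower in Luxi cattle at an unadjusted p under 0.05 (15.0% and 6.81% of all genes). HSP90AB1, a chaperone that holds Argonaute open for its RNA, had FPKM of 189, 184 and 181 in Shandong black animals and 81.1, 72.9 and 109 in Luxi animals. Its breeds were well apart, with a difference of -1.09 (limma adjusted p = 0.0832), and it was called under quantile normalization (adjusted p = 0.0429), without the mean-variance trend (0.0417), and by exon coverage with size factors (0.043), its adjusted p running from 0.0359 to 0.29 over the alternatives. The importins TNPO1 and IPO8 had differences of 0.60 and 0.47 (limma adjusted p = 0.194 and 0.207) without overlap. By exon coverage both overlapped, and the difference was 0.18 for TNPO1 (adjusted p = 0.558) and 0.52 for IPO8 (adjusted p = 0.164).

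Among the processing cofactors, a list that holds some genes under an older and a newer name, 15 of 21 names were tested. At an unadjusted p under 0.05, 2 were higher and 1 lower in Luxi cattle, beside 15.0% and 6.81% of all genes. HNRNPA1, an RNA-binding protein that assists the processing of some microRNAs, had FPKM of 45.6, 40.4 and 40.4 in Shandong black animals and 24.5, 20.7 and 22.8 in Luxi animals. The breeds did not overlap. Its difference of -0.86 had a limma adjusted p of 0.0712, and it was called after scaling by size factors (-1.0, adjusted p = 0.047), in a range of adjusted p from 0.0192 to 0.344 over the alternatives. ZSWIM8, part of a ligase that marks Argonaute for degradation, and XRN2, a nuclear exonuclease, had differences of 0.46 and 0.47 (limma adjusted p = 0.17 and 0.206).

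The TNRC6A paralogs and the poly(A)-binding proteins they contact, 4 of 4 tested, went both ways. TNRC6C had FPKM of 1.17, 1.49 and 1.07 in Shandong black animals and 2.79, 1.86 and 4.76 in Luxi animals, with no overlap and a difference of 0.83 (limma adjusted p = 0.135). TNRC6B overlapped between the breeds by FPKM, with a difference of 0.53 (limma adjusted p = 0.35). By exon coverage it did not, at 4.28, 7.05 and 5.22 in Shandong black animals and 9.39, 8.86 and 8.64 in Luxi animals, a difference of 0.63 (adjusted p = 0.107). PABPC1, the main cytoplasmic poly(A)-binding protein, had FPKM of 45, 37.9 and 43.1 in Shandong black animals and 30, 23.9 and 32 in Luxi animals, with no overlap and a difference of -0.54 (limma adjusted p = 0.212).

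Downstream, 15 of 15 deadenylase genes were tested and 1 had an unadjusted p under 0.05, beside 21.8% of all genes. That gene was TOB2, an adaptor of the CCR4-NOT complex, with a difference of 0.86 (limma adjusted p = 0.225) and overlapping breeds. TOB2 was called when Luxi animal 1 was left out (adjusted p = 0.0411), in a range from 0.0262 to 0.496 over the alternatives. PAN2 and TOB1 had differences of 0.47 and 0.50 (limma adjusted p = 0.256 and 0.325). Of the decapping and decay genes 9 of 10 were tested, and the decapping genes DCP1A and EDC3 and the exonuclease XRN1 had differences of 0.41, 0.44 and 0.44, with Luxi cattle higher and no overlap (limma adjusted p = 0.188, 0.224 and 0.242). None of the 4 PIWI genes, the germline relatives of the Argonautes, was listed in any animal.

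The nearest annotated genes past the end of AGO2 on chromosome 14 did not share its FPKM difference. CHRAC1, on the opposite strand 14924 bases past the end of AGO2, had FPKM of 1.68, 2.19 and 1.64 in Shandong black animals and 2.83, 2.04 and 2.19 in Luxi animals, which overlapped (difference 0.24, limma adjusted p = 0.443). TRAPPC9, 62129 bases past it on the same strand, had FPKM of 2.13, 1.85 and 2.1 in Shandong black animals and 1.48, 3.59 and 2.48 in Luxi animals, which overlapped too (difference 0.17, limma adjusted p = 0.71). Before AGO2 the nearest entries listed were the 2 mature arms annotated for MIR151, 98371 bases or more away. They stayed under an FPKM of 1 in every animal and were too low to test. The farther arm, at means of 0.0212 and 0.012, was lower in Luxi cattle without overlap. Without a small-RNA library these values do not measure the microRNA.

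The genes most like AGO2 across the 6 animals changed with the measure. By log2(FPKM + 1) over 9781 genes the highest Pearson correlations were those of LYSMD1 (0.997), COQ9 (0.996), NFKBIA (0.995), GTPBP1 (0.995) and HCCS (0.993), all of them without overlap between the breeds and higher in Luxi cattle, and the lowest those of LOC112448378 (-0.993), ZCCHC7 (-0.993), CKAP5 (-0.99), LOC784007 (-0.99) and SBDS (-0.988), all lower in Luxi cattle. With 6 points in 2 groups, any gene whose breeds lie apart correlates with the AGO2 sum. By exon coverage over 9280 genes the highest were KCTD11 (0.996), ANK2 (0.989), an entry listed as rna78877 (0.983), SCYL3 (0.982) and ZBTB21 (0.98), and the lowest ADH5 (-0.976), ITGB1BP1 (-0.971), POC1B (-0.969), USP40 (-0.963) and NUDT2 (-0.961). The breeds overlapped in all 10 of these. The points share libraries and depth, and the correlations describe these 6 animals only.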

How the data were processed

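Per the file headers, the authors ran StringTie 1.3.3b library by library with a strand setting and the NCBI annotation as a guide, and deposited for each transcript its coverage, its FPKM and its TPM. Their methods name Fastp for trimming, HISAT for alignment to ARS-UCD1.2, a later StringTie version and Cuffdiff, which was not run here. The deposited coverage is the mean per base of a transcript or exon, the deposited FPKM is that coverage relative to all bases aligned, and the deposited TPM served only as an alternative. Read counts were not used, so no counting error is given, and precision is limited by the number of animals, 3 per breed with 1 library each.

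Gene FPKM and exon coverage were computed as described above in Python 3.11.15 with pandas 2.3.3. Genes with a mean of at least 1 in a breed were tested with limma 3.58.1 in R 4.3.3 (lmFit and eBayes with trend on log2 of the value plus 1, no covariate, 95% intervals) with Benjamini-Hochberg adjustment over all genes tested, and the procedure was tested on simulated data. The 10 genes and the gene lists were chosen with earlier results of these data known. The genes named are the 10, up to 3 of each pathway list with the smallest p, the nearest 2 annotated genes on either side of AGO2, and the 5 highest and 5 lowest correlations with AGO2. Alternatives were a pseudocount of 0.1, no filter, a mean FPKM of at least 5, TPM, size factors, quantile normalization, eBayes without trend, limma voom on reads estimated from coverage, a replicate block, other rules for assembled transcripts, and leaving out each animal. Exon coverage and its alternatives were added after seeing the data. Sequences were not used here. One gene with a difference between the measures is not reported here.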

Additional observations from a re-analysis of the deposited data

How the results depend on the processing

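The difference of AGO2 in log2(FPKM + 1), 3.11, was 5.37 with a pseudocount of 0.1, 4.08 with TPM and 6.82 with limma voom, and ran from 2.98 to 3.19 with each animal left out. It was 1.05 on reference transcripts only, 1.05 and 1.43 with 80% and 20% of the bases required on the exons, and 1.14 with all transcripts of the assembled locus. At 80% no 19-exon transcript was in the sum, and at 20% that of Shandong black animal 3 was not. The locus sum of Luxi animal 3 held both its reference transcript at 8.12 and the separate 3′ piece at 8.71. By exon coverage it was 0.20, with a replicate block also 0.20, with size factors 0.09, 0.29, 0.14 and 0.16 without Shandong black animals 1, 2 and 3, and 0.29, 0.05 and 0.26 without Luxi animals 1, 2 and 3.

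None of the other 9 genes was called under any of the 28 alternatives. Direction turned in AGO3 (0.01 without Shandong black animal 1, 0.16 without Luxi animal 2, and 0.12 without the latter by exon coverage, in a range from -0.46), in DROSHA (0.06 without Luxi animal 3, in a range from -0.12, and 0.02 by exon coverage, in a range from -0.19) and in DGCR8 (-0.01 with size factors, -0.03 with quantile normalization, -0.16 with 80% on the exons, -0.02 without Luxi animal 3, in a range to 0.17); the cause was not tested. AGO1, AGO4, DICER1, XPO5 and TNRC6A kept their direction under all alternatives that gave a value. TARBP2 could be tested under 2. Pathway genes called went from 0 to 1 with size factors, with quantile normalization, without the trend and by exon coverage with size factors, and ran from 0 to 1 by FPKM and 0 to 3 by exon coverage with each animal left out, the highest without Luxi animal 1 (HSP90AB1, TOB2 and BTG2 by exon coverage).

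Over all genes 251 were called, and 63 without the FPKM filter, 134 with a mean of at least 5, 91 with limma voom, 135 with a replicate block and 163 on reference transcripts only. Leaving out an animal gave 3 to 593 calls by FPKM (10 without Shandong black animal 1, 3 without its animal 3, 593, 44 and 87 without Luxi animals 1, 2 and 3) and 18 to 665 by exon coverage (28, 18, 665, 124 and 107 in the same order). Calls were 151 higher and 100 lower in Luxi cattle, against 113 and 139 with size factors, which moved the median difference from 0.13 to 0.03, and 124 and 164 with quantile normalization. Same-numbered animals are different animals, and their deviations from the breed means correlated by 0.084, 0.0869 and 0.0745. Pairs of unlike number were all lower, from -0.107 to 0.00834. As the labels give no pairing and the values were small, the numbers were not taken to pair the animals. With a replicate block calls went from 251 to 135 by FPKM and from 290 to 357 by exon coverage. The replicate block called none of the 9 genes.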

Other observations

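Some genes called by FPKM had a difference by exon coverage of a size under 0.5 or of the opposite sign. ADPRHL1, an ADP-ribosylhydrolase-like gene of striated muscle, had mean FPKM of 0.106 in Shandong black animals and 19.3 in Luxi animals, and mean exon coverage of 38.7 and 21.0 per gigabase. The difference was 3.97 by the first measure and -0.92 by the second. Others were LOC101902555 (1.35 by FPKM and 0.49 by exon coverage), PRG4 (-1.30 and -0.19) and NMNAT2 (1.05 and 0.34). Their mean exon coverage in Shandong black and Luxi animals was 0.083 and 0.618, 0.459 and 0.295, and 0.169 and 0.484. At such low levels the added 1 shrinks a log2 difference, and each kept its direction by both measures. The genes named here were chosen after their values were seen. Of all genes called by FPKM, 5 were too low in exon coverage to test. LOC101902555, PRG4 and NMNAT2, with means under 1 in both breeds, were too low as well and are not in addition to them.

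Of the 251 genes called by FPKM and the 290 called by exon coverage, 200 were called by both, 79.7% of the former and 69.0% of the latter.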
